A study of Homo sapiens with 14 samples.

Results

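The 10 genes described here belong to the unfolded protein response and the integrated stress response, which cells use to adjust protein synthesis and folding under stress. They were ATF4, DDIT3, ASNS, CHAC1, TRIB3, SESN2, HSPA5, XBP1, DNAJB9 and HERPUD1, taken by gene symbol from 61229 symbols in the deposited tables, and all 10 were found and passed the filter on low counts. RNA was sequenced in 14 libraries from xenografts that UMUC3 cells, a human bladder cancer line, formed in mice. The groups were FASN knockdown after cigarette smoke medium (CSM; n = 4), control after CSM (n = 4), FASN knockdown in regular medium (n = 3) and control in regular medium (n = 3). FASN encodes fatty acid synthase, which makes palmitate. Cells of the CSM groups were exposed to 10% CSM before engraftment and the xenografts were sampled afterwards, so that CSM values describe tumours grown from exposed cells. The control cells are titled as carrying a control hairpin. The labels name neither the knockdown reagent, nor whether a line was 1 clone, nor the strain and age of the mice. Nothing in the labels ties each library to its own animal, so a p-value here weighs a difference against library-to-library spread, which may be technical.

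In the integrated stress response, kinases phosphorylate the initiation factor eIF2, general translation slows, and translation of the transcription factor ATF4 rises. ATF4 in turn drives genes of amino acid supply and stress, among them ASNS, TRIB3, CHAC1, SESN2 and DDIT3. In the unfolded protein response, the endoplasmic reticulum (ER) sensor PERK feeds into the same eIF2 branch, ATF6 is cleaved to a transcription factor, and IRE1 removes a short stretch from XBP1 mRNA, which then encodes an active transcription factor. HSPA5, DNAJB9 and HERPUD1 are targets of these ER branches. Because ATF4 and XBP1 are regulated in translation and splicing, their mRNA levels alone do not measure the activity of either response.

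The stretch that IRE1 removes from XBP1 is shown because the splicing results below turn on it. It lies in exon 4 of 5 of the transcript XBP1-201, in the coding sequence, at chr22:28796124-28796149 on the minus strand (GRCh38, GENCODE release 29). The first sequence is the unspliced form with the 26 removed bases in capitals and 12 bases on each side, and the second is the joined, spliced form.
XBP1 unspliced: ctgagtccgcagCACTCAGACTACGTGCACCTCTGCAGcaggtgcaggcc
XBP1 spliced: ctgagtccgcagcaggtgcaggcc

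Promoter windows (RefSeq, GRCh38.p14, from 250 bases before to 50 after each gene start) were found for all 10 genes and searched on both strands for 4 motifs. They are shown because some of the genes varied together between libraries. The ER stress element, to which ATF6 binds with NF-Y, is CCAAT and CCACG separated by 9 bases. It was found in HSPA5 and XBP1, and in 0.0916% of all 27305 genes with a window. The ER stress element II, ATTGG and CCACG separated by 1 base, was found in HERPUD1 and in 0.0696% of all genes. The C/EBP-ATF response element, TGATGNAA, was found in ASNS, CHAC1 and HERPUD1 and in 4.46% of all genes. The unfolded protein response element, TGACGTGG, was found in 0 of the 10 genes and in 0.927% of all genes. The matches are in capitals with 20 bases on each side, and no match overlapped another. The stretches are HSPA5 at chr9:125241371-125241429 (minus strand), XBP1 at chr22:28800583-28800641 (minus strand), HERPUD1 at chr16:56932005-56932055 (plus strand), ASNS at chr7:97872449-97872496 (minus strand) and CHAC1 at chr15:40953242-40953289 (plus strand). The second HERPUD1 stretch, with the C/EBP-ATF element, is at chr16:56931946-56931993 (plus strand). The matches in CHAC1 and in the second HERPUD1 stretch are on the reverse strand.
HSPA5: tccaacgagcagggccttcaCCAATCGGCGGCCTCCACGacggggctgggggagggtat
XBP1: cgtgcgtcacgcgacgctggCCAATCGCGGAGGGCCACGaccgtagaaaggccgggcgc
HERPUD1: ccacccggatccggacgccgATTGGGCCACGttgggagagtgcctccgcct
ASNS: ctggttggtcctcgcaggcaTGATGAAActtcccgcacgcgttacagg
CHAC1: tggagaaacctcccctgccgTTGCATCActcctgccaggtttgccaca
HERPUD1, second stretch: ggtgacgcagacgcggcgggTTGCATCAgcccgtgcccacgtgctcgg
A match describes these letters and not binding.

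Summed counts per library ran from 15810287 to 45209466, and 2.64% to 25.6% of them came from the 7SL genes RN7SL1 and RN7SL2, RNA of the signal recognition particle. Levels are given as CPM, that is, counts scaled to a common total with TMM factors. FASN averaged 291 ± 137 CPM in FASN knockdown after CSM (SD, n = 4) against 431 ± 48.9 CPM in control after CSM (SD, n = 4), and 117 ± 16.2 CPM in FASN knockdown against 451 ± 104 CPM in control (SD, n = 3 each). In edgeR's quasi-likelihood test FASN had a log2 fold change of -0.56 ± 0.28 after CSM (SE, adjusted p = 0.288). That adjusted p lay above the call threshold of 0.05, so the knockdown of FASN was not called after CSM. FASN was called in regular medium, at -1.94 ± 0.33 (SE, adjusted p = 0.0242), and averaged over both media, at -1.25 ± 0.21 (SE, adjusted p = 0.00484). The library labelled FASN knockdown after CSM, replicate 4, held 479 CPM of FASN, within the range of the controls and against its label. It was kept. Knockdown fold changes without it are given for the genes listed at the start, where they differ by over 1.5 times or in sign. For FASN itself the fold change without this library is not given here. Replicates 1, 2 and 3 of that group held 220, 166 and 301 CPM of FASN, against 366 to 479 CPM in control after CSM. Whether the missing call of FASN after CSM rests on replicate 4 was therefore not tested. Of 13 urothelial markers, UPK3A and KRT20 were at 0 in every library, whereas KRT8 and KRT18 had medians of 90.2 and 148 CPM and the mesenchymal marker VIM had 1993 CPM. The summed urothelial markers ran from 185 to 215 CPM in FASN knockdown after CSM and from 269 to 327 CPM in control after CSM. In regular medium they ran from 199 to 306 CPM in FASN knockdown and from 238 to 288 CPM in control. Most of these sums came from KRT8 and KRT18. Of 9 tested urothelial markers, 4 had a positive and 5 a negative log2 fold change for knockdown after CSM. In regular medium 6 were positive and 3 negative, and 0 were called in either medium, so the sums do not describe the markers as a set. Of 5 markers of plasma cells, which run the unfolded protein response at a high level, JCHAIN and IGKC were at 0 in every library, and most of the summed signal was SDC1, which epithelial cells also express. The part of these differences in the results was not tested. Only human transcripts are in the tables, so mouse host cells are not measured apart. The processing notes name no step that removes mouse reads, and whether such reads add to the human counts was not tested. Fewer cells of a type and less RNA per cell cannot be told apart in such bulk libraries.

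The 10 genes spanned a wide range of levels. On the TPM scale, which is per length and so allows genes to be compared, the median over 14 libraries was 128 TPM for ATF4 and 114 TPM for HSPA5, the ER chaperone of the set. ATF4 exceeded HSPA5 in 5 of 14 libraries, so their order was not stable. DDIT3, which encodes the pro-apoptotic transcription factor CHOP, followed with a median of 28.1 TPM, and HSPA5 exceeded it in all 14. XBP1 (17.1 TPM) and HERPUD1 (17.0 TPM) did not separate, with XBP1 higher in 7 of 14 libraries. TRIB3 had a median of 15.5 TPM, ASNS 8.33 TPM, SESN2 4.87 TPM and DNAJB9 3.18 TPM. CHAC1 was lowest, with a median of 0.555 TPM and 2 to 117 expected counts per library, so that its values carry the largest counting error. The 7SL RNA took 17.9% to 69.1% of TPM, which lowers all other TPM values of a library, so that levels between libraries were compared in CPM.

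**Figure D1:**
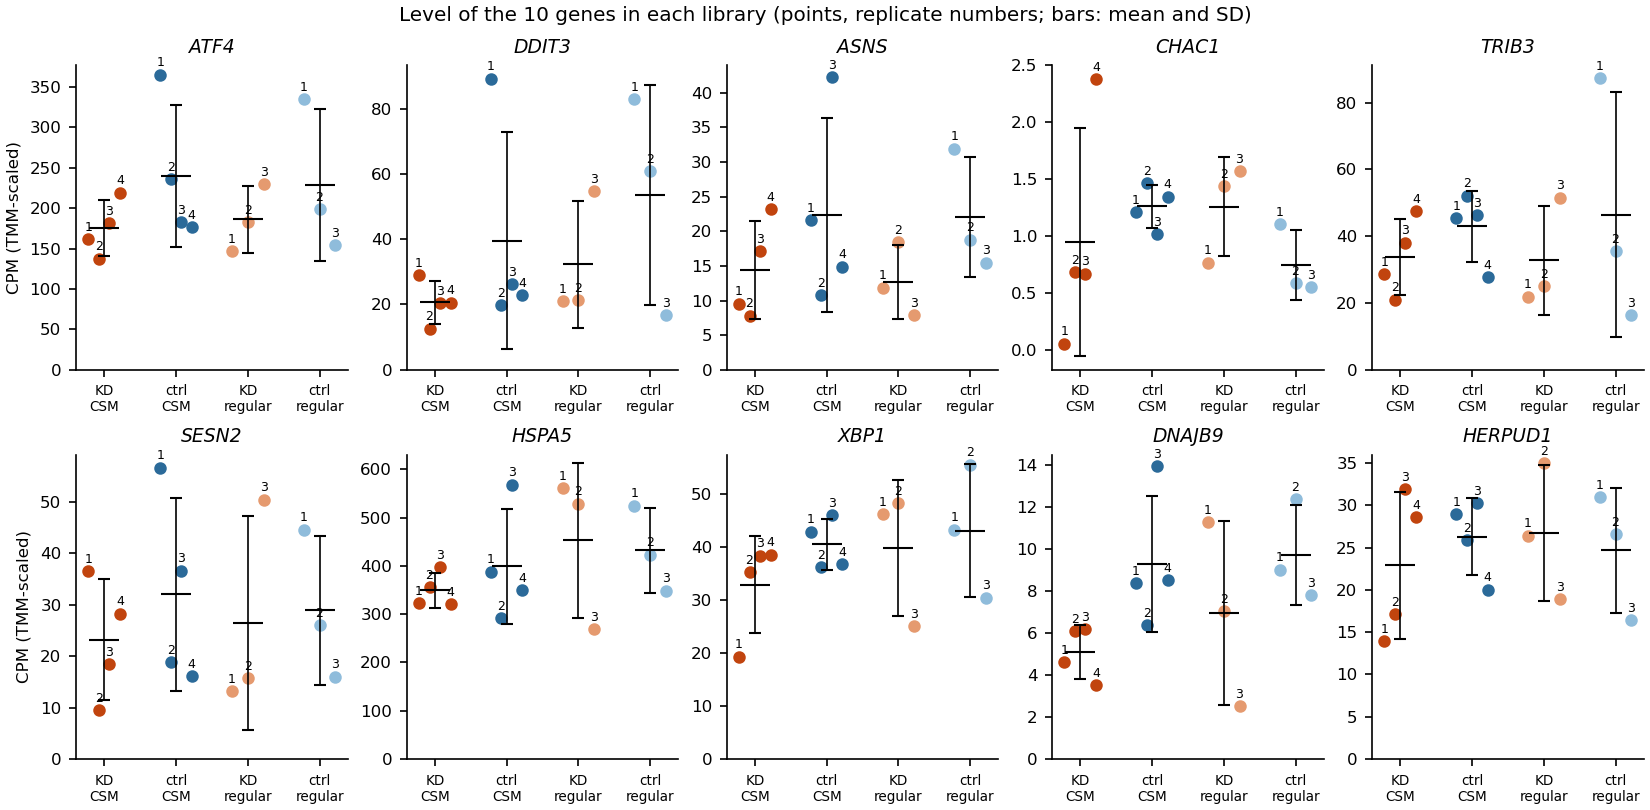
Level of each of the 10 genes (y axis, TMM-scaled CPM, linear) in every library by group (x axis; KD, FASN knockdown; ctrl, control; CSM, cigarette smoke medium), with replicate numbers beside the points and the group mean and SD as bars. The groups overlap for each gene in each pairwise comparison apart from DNAJB9 after CSM, where FASN knockdown ran from 3.52 to 6.18 CPM and control from 6.36 to 13.9 CPM.

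The first question was whether FASN knockdown changed these genes in xenografts. None of the 10 genes was called in either medium or in the average over both, at an adjusted p below 0.05 (edgeR's quasi-likelihood test, Benjamini-Hochberg over 22435 genes). After CSM 1.20% of all tested genes were called and 0 of the 10 (1 at an unadjusted p below 0.05, against 18.5% of all genes). In regular medium 0.209% were called and 0 of the 10 (0 unadjusted, against 9.1% of all genes). In the average over both media 3.61% were called and 0 of the 10 (2 unadjusted, against 19.7% of all genes). DESeq2 and limma on log2(TPM + 1) also called 0 of the 10 in each of these comparisons. With no filter on low counts edgeR called DDIT3 after CSM (adjusted p = 0.0132) and DDIT3 and ASNS in the average (adjusted p = 0.00102 and 0.0224). The log2 fold change of DDIT3 after CSM was then -0.93 ± 0.25, against -0.94 ± 0.53 with the filter (SE). Without the filter more genes were called in general, such as 385 of all genes in regular medium in place of 47. The share of all genes it called after CSM and in the average is not given here. After CSM all 10 fitted log2 fold changes were negative, with a median of -0.43 against 0.01 over all tested genes. These signs depended in part on the fit. HSPA5 turned positive in 5 of 24 alternative fits (up to 0.53) and HERPUD1 in 2 of 24 (up to 0.68). ATF4, ASNS, SESN2, TRIB3 and XBP1 did so in 1 of 24 each (up to 0.32, for TRIB3), and CHAC1 in 1 of 23. DDIT3 and DNAJB9 kept their sign. In regular medium 7 of 10 were negative, with a median of -0.21 against 0.02.

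Of the transcription factors, ATF4 had 161, 137, 182 and 219 CPM in FASN knockdown after CSM, against 365, 236, 182 and 177 CPM in control after CSM. In regular medium ATF4 had 147, 183 and 229 CPM in FASN knockdown, against 335, 199 and 154 CPM in control. The groups overlapped in both media, and replicate 1 of each control group stood highest. The log2 fold change of ATF4 was -0.46 ± 0.28 after CSM (SE, adjusted p = 0.390) and -0.30 ± 0.33 in regular medium (SE, adjusted p = 0.885), and the value after CSM was -0.15 without replicate 1 of control after CSM.

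DDIT3 had 28.9, 12.6, 20.5 and 20.6 CPM in FASN knockdown after CSM, against 89.2, 19.8, 26.1 and 22.9 CPM in control after CSM. In regular medium it had 20.9, 21.3 and 54.7 CPM in FASN knockdown, against 82.9, 60.8 and 16.8 CPM in control. A single control library stood far above the rest after CSM, while in regular medium the values of both groups interleaved. The log2 fold change of DDIT3 was -0.94 ± 0.53 after CSM (SE, adjusted p = 0.348), and -0.12 ± 0.47 (SE, adjusted p = 0.904) without replicate 1 of control after CSM. It was -0.72 ± 0.61 in regular medium (SE, adjusted p = 0.817) and -0.83 ± 0.40 in the average (SE, adjusted p = 0.271). DDIT3 shares 355 exon bases with MARS on the opposite strand (GENCODE release 29), and the sources do not say whether the quantification used strand.

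Among the targets of ATF4, ASNS makes asparagine. It had 9.56, 7.80, 17.1 and 23.2 CPM in FASN knockdown after CSM, against 21.6, 10.7, 42.2 and 14.9 CPM in control after CSM. In regular medium ASNS had 11.8, 18.5 and 7.87 CPM in FASN knockdown, against 31.9, 18.8 and 15.5 CPM in control. The groups overlapped in both media, and replicate 3 of control after CSM and replicate 1 of control stood highest. ASNS shares 1985 exon bases with AC079781.5 on the same strand, so Salmon could have divided reads between them. In the average over both media the log2 fold change was -0.72 ± 0.33 (SE, unadjusted p = 0.0480, adjusted p = 0.250 in edgeR). Replicate 4 of FASN knockdown after CSM, whose FASN level went against its label, had the highest ASNS of its group, and the after-CSM value was -0.63 ± 0.44 with it and -0.95 ± 0.46 without it (SE, adjusted p = 0.439 and 0.303). Without the libraries over 15% 7SL, which include replicate 3 of control after CSM, it was -0.12 ± 0.39 (SE, adjusted p = 0.914), and with the 7SL share as a covariate -0.32 ± 0.50 (SE, adjusted p = 0.768).

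TRIB3 encodes a pseudokinase that restrains the response, SESN2 a sestrin that dampens mTORC1 and is also a p53 target, and CHAC1 an enzyme that degrades glutathione. TRIB3 ran from 21.0 to 47.5 CPM in FASN knockdown after CSM and from 27.8 to 52.2 CPM in control after CSM, and from 21.9 to 51.5 CPM in FASN knockdown and from 16.4 to 87.3 CPM in control. SESN2 had 36.5, 9.44, 18.5 and 28.2 CPM in FASN knockdown after CSM, against 56.7, 18.8, 36.6 and 16.1 CPM in control after CSM. In regular medium SESN2 had 13.2, 15.8 and 50.4 CPM in FASN knockdown, against 44.6, 26.1 and 16.0 CPM in control. Replicate 3 of FASN knockdown therefore stood above all 3 controls, with the other two below them. Adjusted p-values of TRIB3 and SESN2 in edgeR were at least 0.636 in each medium. The log2 fold change of TRIB3 after CSM was -0.34 ± 0.42 with replicate 4 of FASN knockdown after CSM and -0.54 ± 0.47 without it (SE, adjusted p = 0.676 and 0.569). That of SESN2 after CSM was -0.47 ± 0.51, and -0.002 ± 0.54 without replicate 1 of control after CSM (SE, adjusted p = 0.636 and 0.999). CHAC1 ran from 0.0592 to 2.38 CPM in FASN knockdown after CSM, a range that covered all 4 controls at 1.02 to 1.47 CPM. In regular medium CHAC1 ran from 0.771 to 1.57 CPM in FASN knockdown and from 0.552 to 1.11 CPM in control. Its log2 fold changes were -0.40 ± 0.67 after CSM and 0.74 ± 0.78 in regular medium (SE, adjusted p = 0.768 and 0.877), and the value after CSM was -1.41 ± 0.66 without replicate 4 of FASN knockdown after CSM (adjusted p = 0.285). In the average CHAC1 had 0.17 ± 0.51 with that library and -0.34 ± 0.46 without it (SE, adjusted p = 0.883 and 0.734), so that its sign turned.

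In the ER branch, DNAJB9 encodes ERdj4, a co-chaperone of the ER chaperone BiP, and is a target of spliced XBP1. DNAJB9 had 4.62, 6.09, 6.18 and 3.52 CPM in FASN knockdown after CSM, against 8.38, 6.36, 13.9 and 8.51 CPM in control after CSM. All 4 knockdown libraries lay below all 4 controls, although the nearest values were 6.18 and 6.36 CPM. The share of all tested genes that separate in this way is not given here. In this comparison 18.5% of them had an unadjusted p below 0.05 in edgeR, so the separation is not read as particular to DNAJB9. The log2 fold change of DNAJB9 was -0.87 ± 0.39 (SE, unadjusted p = 0.0397, adjusted p = 0.247 in edgeR), with a 95% confidence interval from -1.69 to -0.05. The lowest value, 3.52 CPM, was in replicate 4 of FASN knockdown after CSM, whose FASN level went against its label. Without that library the log2 fold change was -0.71 ± 0.41 (SE, adjusted p = 0.384 in edgeR). In regular medium DNAJB9 had 11.3, 7.03 and 2.51 CPM in FASN knockdown, against 9.01, 12.4 and 7.78 CPM in control. Here the groups overlapped, and the log2 fold change was -0.49 ± 0.44 (SE, adjusted p = 0.846). Averaged over both media it was -0.68 ± 0.29 (SE, unadjusted p = 0.0358, adjusted p = 0.219). DNAJB9 shares 183 exon bases with THAP5 and 99 with PNPLA8, both on the opposite strand.

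HSPA5 encodes BiP, the main ER chaperone of the Hsp70 family. It had 323, 356, 397 and 320 CPM in FASN knockdown after CSM, against 388, 291, 568 and 350 CPM in control after CSM. In regular medium HSPA5 had 561, 529 and 269 CPM in FASN knockdown, against 525, 423 and 348 CPM in control. The knockdown values after CSM lay inside the range of their controls, and those in regular medium lay on both sides of theirs. The log2 fold changes were -0.19 after CSM (95% confidence interval -0.75 to 0.36, adjusted p = 0.706) and 0.07 in regular medium (-0.57 to 0.71, adjusted p = 0.985), and the average over both media was -0.06 (-0.48 to 0.36, adjusted p = 0.889). That last interval leaves out changes of 1 or more on the log2 scale in either direction, which the interval of DDIT3 (-1.69 to 0.03) does not.

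XBP1 ran from 19.3 to 38.5 CPM in FASN knockdown after CSM and from 36.2 to 46.0 CPM in control after CSM. In regular medium XBP1 ran from 25.0 to 48.2 CPM in FASN knockdown and from 30.4 to 55.5 CPM in control. HERPUD1, an ER membrane protein of the degradation machinery, ran from 13.9 to 31.9 CPM in FASN knockdown after CSM and from 20.03 to 30.3 CPM in control after CSM. In regular medium its ranges were 18.9 to 35.0 CPM in FASN knockdown and 16.4 to 31.0 CPM in control. The groups overlapped throughout, and the 4 log2 fold changes lay between -0.30 and 0.11, with adjusted p-values of at least 0.546 in edgeR. For HERPUD1 the value after CSM was -0.20 ± 0.29 with replicate 4 of FASN knockdown after CSM and -0.31 ± 0.32 without it (SE, adjusted p = 0.730 and 0.624), and the average was -0.04 and -0.11.

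**Figure D2:**
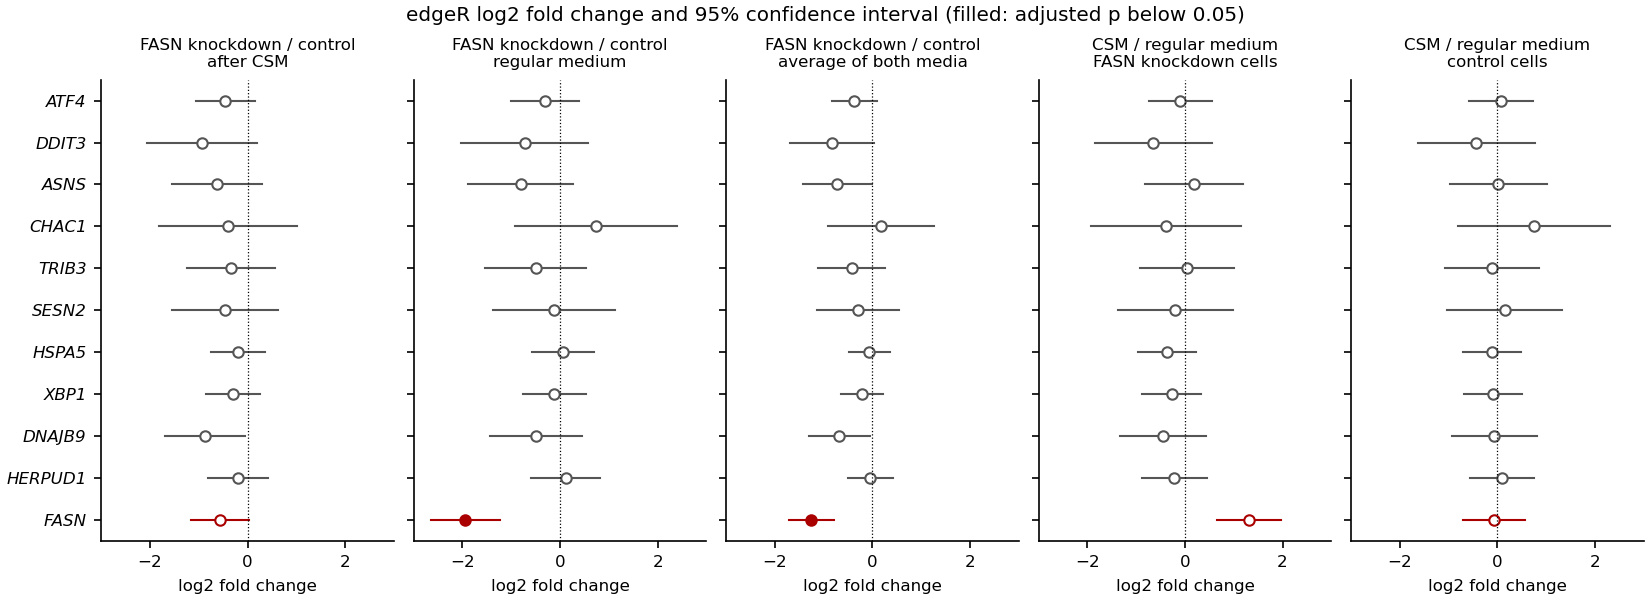
Fitted log2 fold change (x axis, points) with its 95% confidence interval (lines) for the 10 genes and, in red, FASN, in 5 comparisons; filled points passed an adjusted p of 0.05 in edgeR. All intervals of the 10 genes span 0 except those of DNAJB9 after CSM (-1.69 to -0.05), DNAJB9 in the average (-1.30 to -0.05) and ASNS in the average (-1.43 to -0.01), and no point of the 10 is filled.

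The second question was whether exposure to CSM before engraftment left a difference in these genes. In FASN knockdown cells 0% of all tested genes were called for CSM against regular medium (0 of 22435, and 1504 at an unadjusted p below 0.05), and in control cells also 0% (315 unadjusted). DESeq2 called 49 and 5 genes in these comparisons, none of them among the 10. Of the 10 genes, 0 had an unadjusted p below 0.05 in either kind of cell. In FASN knockdown cells 8 of 10 log2 fold changes were negative, from -0.65 for DDIT3 to 0.19 for ASNS, with a median of -0.25 against -0.02 over all genes. In control cells they split 5 and 5, from -0.44 for DDIT3 to 0.74 for CHAC1, with a median of -0.02 against 0.01. The smallest of the 20 adjusted p-values was 0.841, for HSPA5 in FASN knockdown cells, whose log2 fold change was -0.38 ± 0.28 (SE). The FASN level itself differed between the knockdown groups, with 220, 166, 301 and 479 CPM after CSM against 121, 99.9 and 132 CPM in regular medium, so that these groups are not matched in knockdown.

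The third question was whether the knockdown effect differed between media. The interaction, which subtracts the knockdown effect in regular medium from that after CSM, was called for 0% of all tested genes (1174 at an unadjusted p below 0.05) and for 0 of the 10, with 0 of the 10 at an unadjusted p below 0.05. DESeq2 called 7 genes, none of the 10. The median of the 10 was -0.24 against -0.03 over all genes, and the values ran from -1.13 for CHAC1 to 0.17 for ASNS.

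The spliced share of XBP1 was lower in every FASN knockdown library than in every control library of the same medium, although no test passed after adjustment. The spliced share was the expected counts of XBP1-202, which lacks the 26 bases shown above, over those of XBP1-202 and XBP1-201. XBP1-201 held 90.0% and XBP1-202 4.53% of all XBP1 counts. The spliced share was 2.45%, 0%, 0% and 0.237% in FASN knockdown after CSM, against 22.4%, 3.06%, 4.19% and 2.78% in control after CSM. In regular medium it was 2.57%, 0% and 2.18% in FASN knockdown, against 6.55%, 8.95% and 2.73% in control. The 0.237% was in replicate 4 of FASN knockdown after CSM, whose FASN level went against its label. The margin between the groups was narrow, 2.45% against 2.78% after CSM and 2.57% against 2.73% in regular medium. The portion of all transcript shares that separate in this way is not given here. For gene levels, 18.5% of all tested genes after CSM and 9.1% in regular medium had an unadjusted p below 0.05 in edgeR. The separation is therefore not read as particular to XBP1.

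The group means of the spliced share were 0.673% ± 1.19 in FASN knockdown after CSM and 8.12% ± 9.57 in control after CSM (SD, n = 4 each; exact two-sided permutation test, p = 0.0286, adjusted over 4 comparisons p = 0.114). The p of 0.0286 is the smallest that 4 against 4 libraries allow. Without replicate 1 of control after CSM, which held 22.4%, the difference was -2.67 percentage points in place of -7.45, with an exact p of 0.0571. Leaving out any 1 of the 4 knockdown libraries kept a difference of -8.04 to -7.22 points but gave an exact p of 0.114 without replicate 1 and 0.2 without replicate 2, 3 or 4. In regular medium the means were 1.59% ± 1.39 in FASN knockdown and 6.08% ± 3.14 in control (SD, n = 3 each; exact p = 0.1, the smallest possible, adjusted p = 0.2). No comparison of the share therefore passed the threshold after adjustment. CSM against regular medium gave 0.673% against 1.59% in FASN knockdown cells (exact p = 0.400) and 8.12% against 6.08% in control cells (exact p = 0.914).

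The counts behind the spliced share were few. XBP1-202 had 0 to 33.2 expected counts per knockdown library and 30.5 to 315 per control library. The 95% Wilson interval of replicate 1 was 1.42% to 3.94% in FASN knockdown after CSM, and that of replicate 4 was 2.08% to 3.80% in control after CSM, so that the boundary libraries could not be told apart. An estimate of 0 allowed a share of up to 0.306% and 0.236% in replicates 2 and 3 of FASN knockdown after CSM, and of up to 0.541% in replicate 2 of FASN knockdown, taking 3 counts as the limit. The 95% Wilson intervals of these libraries, which are two-sided, reached 0.390%, 0.301% and 0.687%. These intervals cover counting error only. XBP1-202 and XBP1-201 differ also at their ends, so the estimate did not rest on the splice junction alone. The deposited XBP1-202 has 1791 bases, a later version than the sequence read here from GENCODE release 29, and XBP1-203, which is 26 bases shorter than XBP1-201, still holds the stretch.

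**Figure D3:**
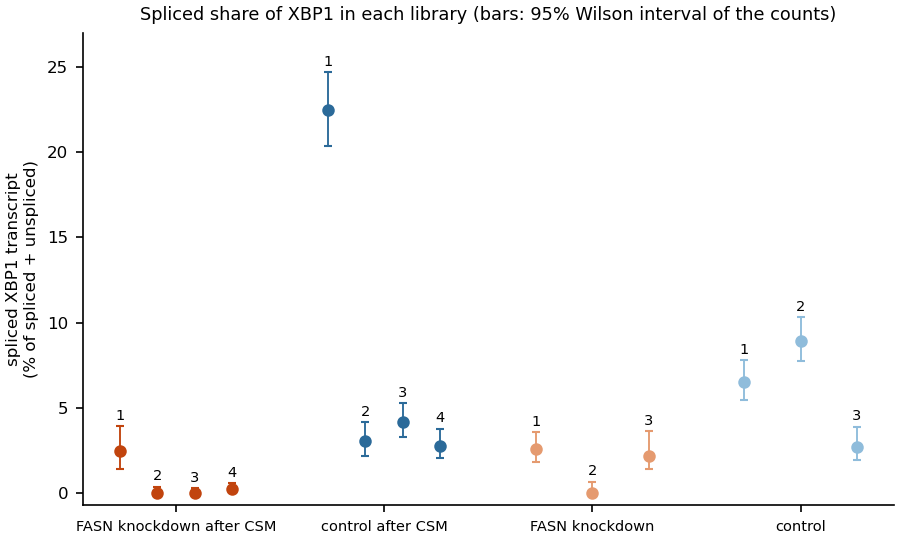
Share of the spliced transcript in spliced plus unspliced XBP1 expected counts (y axis, percent) in every library by group (x axis), with replicate numbers and 95% Wilson intervals of the counts as bars. Knockdown libraries lie between 0% and 2.57%, and control libraries between 2.73% and 22.4%.

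For all 10 genes, more of the variance lay within groups than between them. The group means held 37.4% of the variance of log2 CPM for DNAJB9, 24.5% for ASNS and 23.0% for DDIT3, and 6.41% for SESN2. These shares include the part that 4 group means take up by chance, so they are not read as group effects. The highest library exceeded the lowest 7.10-fold for DDIT3 and 6.00-fold for SESN2, but 2.11-fold for HSPA5. ATF4, DDIT3 and SESN2 were each in their 4 highest libraries in replicate 1 of control after CSM, replicate 1 of control and replicate 3 of FASN knockdown. That last library had the lowest HSPA5 and DNAJB9 of all 14.

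To see which genes varied together apart from the groups, log2 CPM deviations from the group mean were correlated over the 14 libraries, in 45 pairs with 100000 permutations within groups. For 9 pairs the adjusted p of Pearson's r was below 0.05, all with r above 0. Of 6 pairs among ATF4, DDIT3, TRIB3 and SESN2, 5 passed, and their r ran from 0.68 to 0.86. DDIT3 and SESN2 had r = 0.86 (permutation p = 0.00028, adjusted p = 0.0126) and Spearman's rho = 0.89 (permutation p = 0.00031, adjusted p = 0.0140), the only pair that passed by both measures. Of 6 pairs among HSPA5, XBP1, DNAJB9 and HERPUD1, 2 passed. HSPA5 and DNAJB9 had r = 0.87 and rho = 0.80 (permutation, adjusted p = 0.0452 and 0.0552), and XBP1 and HERPUD1 had r = 0.82 and rho = 0.81 (permutation, adjusted p = 0.0452 and 0.0552).

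The 16 pairs between these sets had r from -0.44 to 0.48, and 0 passed. ASNS, a classic ATF4 target, correlated past the threshold with HSPA5 (r = 0.71) and HERPUD1 (r = 0.77) and had r = 0.29 with ATF4 (permutation, adjusted p = 0.568). The division into these sets was made after the correlations were seen. For the 9 pairs, r without the 2 libraries farthest from the median ran from 0.64 to 0.88. Without the 2 libraries with over 15% 7SL it ran from 0.52 to 0.90, and 0 of 45 pairs passed, with a smallest adjusted p of 0.0896. All libraries share the correction for composition, which can itself make genes vary together.

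Other measures also differed between libraries, in part the same ones. The mean log2 CPM of 13 p53 targets was 6.29 in replicate 3 of FASN knockdown, 6.12 in replicate 1 of FASN knockdown after CSM and 5.91 in replicate 1 of control after CSM, and lay between 4.60 and 5.25 in the other 11, among them replicate 1 of control at 4.68. Its deviations correlated with those of SESN2 with r = 0.74 and rho = 0.70 (permutation p = 0.0102 and 0.0211, adjusted over 30 relations p = 0.195 and 0.163), and r was 0.61 without the 2 farthest libraries. The log2 share of 7SL correlated with ATF4 with r = -0.59 and rho = -0.72 (permutation p = 0.0207 and 0.00103, adjusted p = 0.195 and 0.0309), and r was -0.50 without the 2 farthest. Its r was also negative with DDIT3 (-0.57), TRIB3 (-0.51) and SESN2 (-0.61) and positive with HSPA5 (0.62), DNAJB9 (0.68), XBP1 (0.46) and, near 0, HERPUD1 (0.11). The 7SL share thus ran along the division into the sets above, although none of these 7 passed (permutation, adjusted p of at least 0.195 for r). These relations were chosen after the data were seen, and the part of either measure in the gene levels was not tested. With the 7SL share as a covariate in edgeR, the log2 fold change of DDIT3 after CSM was -1.36 ± 0.45 (SE, adjusted p = 0.121) and that of DNAJB9 was -0.47 ± 0.35 (SE, adjusted p = 0.494). In the same fit SESN2 had -1.08 ± 0.46, TRIB3 -0.72 ± 0.40 and ATF4 -0.66 ± 0.24 (SE, adjusted p = 0.225, 0.352 and 0.164). Without the covariate these values were -0.47, -0.34 and -0.46. HSPA5 had 0.04 ± 0.23 with it (SE, adjusted p = 0.942) and -0.19 without it.

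**Figure D4:**
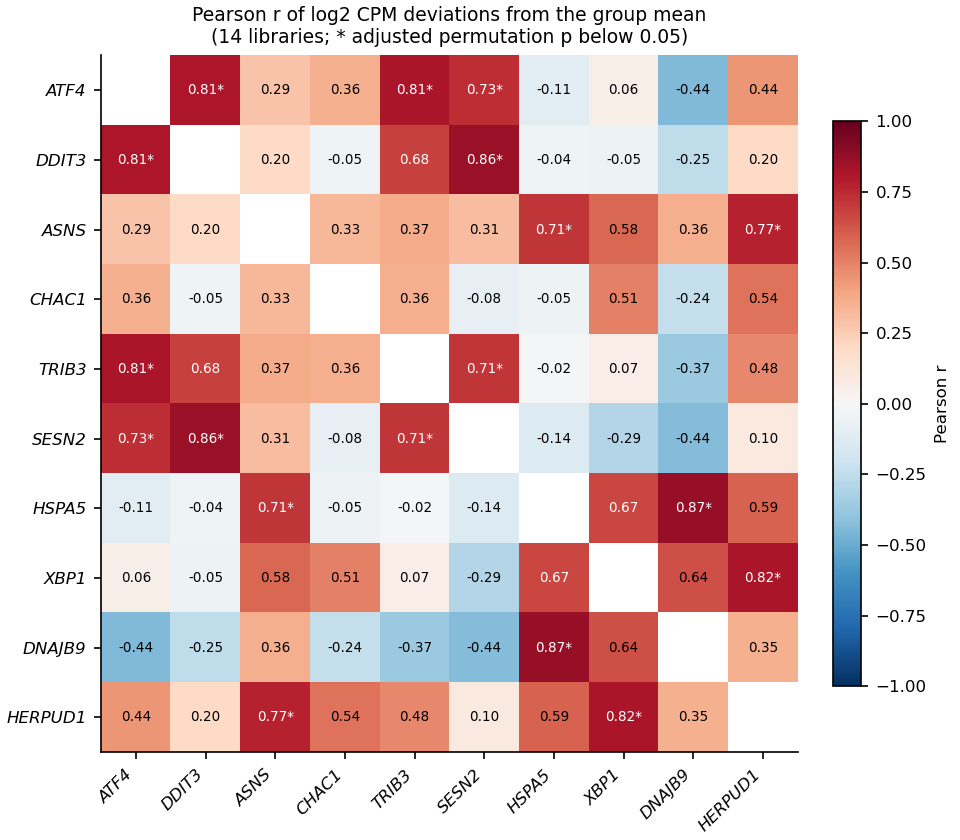
Pearson's r (colour and number) for each pair of the 10 genes (both axes), computed from log2 CPM deviations from the group mean over 14 libraries; asterisks mark an adjusted permutation p below 0.05. Values among ATF4, DDIT3, TRIB3 and SESN2 run from 0.68 to 0.86, and values between these 4 and HSPA5, XBP1, DNAJB9 and HERPUD1 from -0.44 to 0.48.

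Other genes of the pathways were taken from 7 lists with 103 genes, of which 101 were tested. Averaged over both media, 1 of the 101 was called, against 3.61% of all genes, and 0 were called in any of the other 5 comparisons. DESeq2 called 6 in the average, 4 after CSM and 1 in regular medium, and 0 in the other 3 comparisons. Over all 22435 tested genes DESeq2 called 2018 in the average, 1472 after CSM and 345 in regular medium, so these counts did not exceed the background. The 1 gene was SLC7A11, which encodes the cystine transporter xCT and belongs to amino acid supply. SLC7A11 had 4.98 ± 3.05 CPM in FASN knockdown after CSM and 13.5 ± 4.23 CPM in control after CSM (SD, n = 4 each). In regular medium it had 4.63 ± 1.49 CPM in FASN knockdown and 18.5 ± 2.54 CPM in control (SD, n = 3 each). It fell by 1.71 ± 0.29 on the log2 scale in the average (SE, adjusted p = 0.00419), with log2 fold changes of -1.43 ± 0.37 after CSM and -1.99 ± 0.44 in regular medium that did not pass the threshold (SE, adjusted p = 0.0698 and 0.0906).

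The amino acid supply list had 18 of 19 genes with a negative log2 fold change in the average and a median of -0.45, against 0.00 over all genes. The 12 aminoacyl-tRNA synthetases, which charge tRNAs with amino acids, were all negative in the average, with a median of -0.28 and 0 called (3 of 12 with an unadjusted p below 0.05, against 19.7% of all genes). TARS1, the threonine enzyme, had the smallest p of them, with 104 ± 21.9 CPM in FASN knockdown after CSM and 179 ± 32.0 CPM in control after CSM (SD, n = 4 each) and a log2 fold change of -0.79 ± 0.28 there (SE, adjusted p = 0.156). Of the 12 sensors and regulators, 9 were negative in the average and 0 called (2 unadjusted). EIF2AK1, the heme-regulated eIF2 kinase, had 56.3 ± 7.32 CPM in FASN knockdown after CSM and 82.8 ± 6.23 CPM in control after CSM (SD, n = 4 each), with a log2 fold change of -0.43 ± 0.13 in the average (SE, adjusted p = 0.0734). PCK2, the mitochondrial PEP carboxykinase, had 8.04 ± 2.24 CPM in FASN knockdown after CSM and 16.8 ± 3.27 CPM in control after CSM (SD, n = 4 each), with a log2 fold change of -1.06 ± 0.26 there (SE, adjusted p = 0.0580).

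The ER lists had medians of opposite sign in the 2 media. In the average the medians of the chaperone list and of the degradation list lay near 0. The 18 ER chaperones and folding enzymes had a median of -0.23 after CSM (15 negative), 0.13 in regular medium (6 negative) and -0.08 in the average (12 negative). The 14 tested genes of ER-associated degradation had a median of -0.17 after CSM (12 negative), 0.17 in regular medium (2 negative) and 0.03 in the average (6 negative). No gene of either list was called for the interaction between knockdown and medium, of which 0 and 2 genes had an unadjusted p below 0.05 (5.23% of all genes). The 14 genes of translocation and ER export had a median of -0.20 in the average (12 negative). They were all negative after CSM (median -0.46, 4 of 14 with an unadjusted p below 0.05, against 18.5% of all genes), and 5 of 14 were negative in regular medium (median 0.10). SEC61B, a subunit of the translocon, had 25.3 ± 2.57 CPM in FASN knockdown after CSM and 49.1 ± 11.5 CPM in control after CSM (SD, n = 4 each), with a log2 fold change of -0.96 ± 0.27 (SE, adjusted p = 0.0916). Its interaction between knockdown and medium was -0.93 ± 0.41 (SE, adjusted p = 0.942). Of 12 tested transcription factors and stress effectors 0 were called in the average (4 of 12 with an unadjusted p below 0.05, against 19.7% of all genes), and VLDLR, a lipoprotein receptor that ATF4 induces, had the smallest p with a log2 fold change of 0.91 ± 0.31 (SE, adjusted p = 0.113). GDF15, a secreted stress cytokine, had the smallest p of that list after CSM, with 0.303 ± 0.417 CPM in FASN knockdown after CSM and 3.06 ± 4.15 CPM in control after CSM (SD, n = 4 each; log2 fold change -3.34 ± 1.29, SE, adjusted p = 0.190). In regular medium its log2 fold change was 0.99 ± 1.34 (SE, adjusted p = 0.918).

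Lists of other stress programmes were set beside these. Of 10 cytosolic and mitochondrial heat shock genes, 9 were negative in the average (median -0.52) and 1 was called. DNAJB1, an Hsp40 co-chaperone, had 89.4 ± 16.5 CPM in FASN knockdown after CSM and 142 ± 23.8 CPM in control after CSM (SD, n = 4 each), and fell by 0.84 ± 0.20 on the log2 scale in the average (SE, adjusted p = 0.0305). The call of DNAJB1 was lost, with adjusted p from 0.0526 to 0.0889, without any 1 of 6 libraries, namely replicates 1 and 2 of control, 3 of FASN knockdown, 3 and 4 of control after CSM and 1 of FASN knockdown after CSM. It was also lost without the libraries over 15% 7SL (0.0706), with the replicate block (0.0981) and in limma on log2(TPM + 1) (0.465), and in 11 of 28 alternatives in all. Of 13 tested p53 targets, 7 were positive after CSM (median 0.01), 13 in regular medium (median 0.87) and 12 in the average (median 0.39), where 1 was called. In regular medium their mean log2 CPM was 4.83, 5.25 and 6.29 in FASN knockdown, against 4.68, 4.68 and 4.81 in control. Replicate 3 of FASN knockdown thus stood far above the other libraries of that medium. FAS, a death receptor, had 40.5 ± 11.5 CPM in FASN knockdown after CSM and 26.3 ± 4.91 CPM in control after CSM (SD, n = 4 each). In regular medium it had 39.3 ± 12.2 CPM in FASN knockdown and 21.6 ± 1.73 CPM in control (SD, n = 3 each), and it rose by 0.74 ± 0.18 in the average (SE, adjusted p = 0.0358). The call of FAS was lost, with adjusted p from 0.0576 to 0.0930, without any 1 of 10 libraries, namely the 3 controls, replicate 1 of FASN knockdown, replicates 2, 3 and 4 of control after CSM and replicates 1, 2 and 3 of FASN knockdown after CSM. It was also lost without the libraries over 15% 7SL (0.0579), with the replicate block (0.0539), with a gene length offset (0.165) and in limma on log2(TPM + 1) (0.499), and in 15 of 28 alternatives in all.

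**Figure D5:**
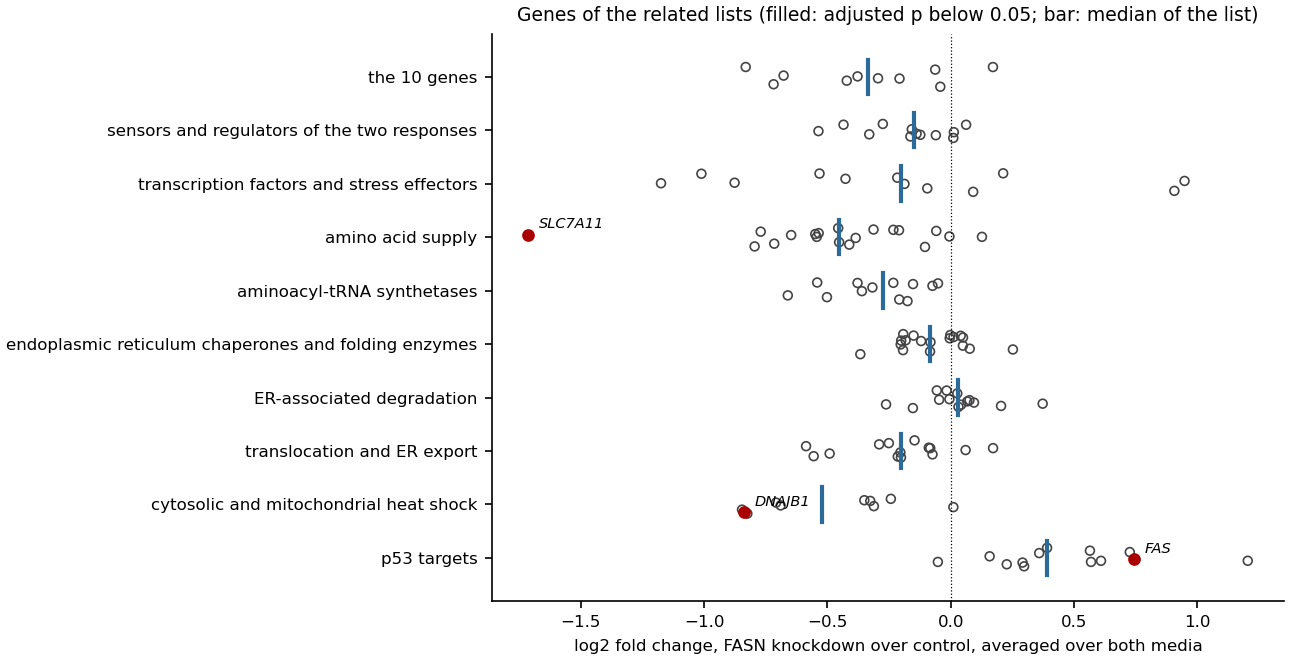
Log2 fold change of FASN knockdown over control averaged over both media (x axis) for the 10 genes and each tested gene of the related lists (rows; points spread vertically for legibility), with the list median as a blue bar and called genes filled and named. The called genes are SLC7A11 (-1.71), DNAJB1 (-0.84) and FAS (0.74).

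Salmon divided the counts of a gene among its transcripts. ATF4-206 held 89.8% ± 2.03 of ATF4 counts in FASN knockdown after CSM and 94.2% ± 0.836 in control after CSM (SD, n = 4 each), and 92.0% ± 5.84 in FASN knockdown and 93.9% ± 2.32 in control (SD, n = 3 each). For DDIT3, most counts lay on DDIT3-201 and DDIT3-202. DDIT3-201 held 46.2%, 48.3% and 50.2% of DDIT3 counts in FASN knockdown in regular medium, against 73.7%, 70.3% and 65.6% in control. After CSM it held 31.9%, 76.0%, 54.6% and 52.4% in FASN knockdown, against 64.8%, 74.8%, 80.9% and 64.9% in control. The groups were apart in regular medium (exact two-sided permutation test, p = 0.1, the smallest possible; adjusted over 8 comparisons p = 0.267) and overlapped after CSM (exact p = 0.143, adjusted p = 0.286). The test of these shares was added after their values were seen, and its p-values do not cover that choice.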

How the data were processed

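The authors deposited 1 Salmon table per library, with expected counts and TPM for 252048 human transcripts, per the file headers. The submitters' processing notes list FastQC, cutadapt and Salmon, with GRCh38 as build, and give no version, strand setting or annotation release. The deposited effective lengths, in bases, entered 1 alternative, a gene length offset.

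Expected counts were summed per symbol and rounded to whole numbers. All 14 libraries entered 1 edgeR 4.0.16 fit (R 4.3.3, TMM, filterByExpr with minimum count 10 and minimum total 15) with a coefficient per group. The call threshold was 0.05 on the Benjamini-Hochberg adjusted p. SE is the absolute log2 fold change over the square root of F. Alternatives used DESeq2 1.42.0 and limma 3.58.1 on log2(TPM + 1). The fit was also tested on simulated data. No 2 libraries of a group agreed within sampling noise (chi-square per degree of freedom at least 46.4).

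The spliced XBP1 transcript was identified by sequence, since length alone would have picked XBP1-203. Permutation tests used scipy 1.17.1. Named list genes were up to 3 called genes with the smallest p per list and comparison, or else the 1 with the smallest p, of which a selection is given. The 10 genes and the lists were chosen with earlier results of these data known.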

Additional observations from a re-analysis of the deposited data

Results flagged for a closer look

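In the groups of 4 libraries, 3 of 24 sets of values (levels of the 10 genes and FASN, and the spliced share of XBP1) had 1 library far from the other 3 by Dixon's 95% criterion for 4 samples, which chance flags in about 1 of 20. DDIT3 was at 89.2 CPM in replicate 1 of control after CSM, with the other 3 between 19.8 and 26.1 CPM. The spliced share of XBP1 was 22.4% in that same library, against 2.78% to 4.19% in the other 3. In FASN knockdown after CSM the spliced share was 2.45% in replicate 1, against 0% to 0.237% in the other 3. Both libraries were also among the 3 with the highest mean log2 CPM of p53 targets, 5.91 in the control and 6.12 in the knockdown, and the part of this in the values was not tested.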

How the results depend on the processing

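Over 30 alternatives to the edgeR fit, 3 of 1494 fold changes of the 10 genes passed the threshold, all with no filter on low counts, and 154 had the other sign from the reported value. The count of the 10 called was 1 after CSM and 2 in the average with no filter on low counts, where the cause was not tested, and 0 under every other alternative and in the other comparisons. Of the other pathway genes, with no filter 3 were called in regular medium, 6 after CSM, 8 in the average, 1 for CSM in control cells, 2 for CSM in FASN knockdown cells and 2 for the interaction. That setting also called more of all genes, with 385 in regular medium in place of 47. Its counts over all genes after CSM and in the average are not given here. DESeq2 called 1 in regular medium, 4 after CSM and 6 in the average, beside 345, 1472 and 2018 of all 22435 tested genes. In the average, limma on log2(TPM + 1) called 0, the 7SL share as a covariate 5, and the fit without both libraries over 15% 7SL and replicate 4 of FASN knockdown after CSM (chosen after seeing the data) 2. After CSM that last fit called 1, as did the fit with only the groups compared. Leaving out 1 library at a time gave 0 to 1 after CSM and 1 to 2 in the average. Counts summed per gene ID, also chosen after seeing the data, changed no call of the 10.

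Replicate numbers did not pair the libraries (correlation of same-number deviations from -0.39 to 0.32, and 0 of 14 libraries correlated best with their own number). The replicate block called 0 of the 10 in each comparison, and 17, 60 and 253 of all genes in regular medium, after CSM and in the average, in place of 47, 270 and 809. Over all alternatives other than leaving out 1 library, the count over all genes in these 3 comparisons ran from 17 to 385, from 59 to 1472 and from 79 to 2018, and leaving out 1 library gave 11 to 37, 87 to 183 and 255 to 1144. No filter gave 58, 168 and 113 for CSM in control cells, CSM in FASN knockdown cells and the interaction. Correlated pairs past the threshold numbered 0 of 45 without the libraries over 15% 7SL, with 12 libraries left, and 11 on raw log2 CPM, in place of 9. The spliced share of XBP1 kept its direction for knockdown under each alternative, with differences from -9.23 to -2.67 points after CSM and from -6.16 to -3.05 in regular medium, and the CSM difference in control cells was -2.73 points without replicate 1 of control after CSM in place of 2.04. CHAC1 rests on 2 to 117 counts per library, and XBP1-202 on 0 to 315.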

Other observations

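HERPUD1-201, the HERPUD1 transcript with the most counts, was singled out after its values were seen. It held 16.9%, 17.4%, 21.2% and 27.1% of HERPUD1 counts in FASN knockdown after CSM, against 38.3%, 39.7%, 46.6% and 37.0% in control after CSM. All 4 knockdown libraries lay below all 4 controls (exact two-sided permutation test, p = 0.0286, the smallest possible; adjusted over 8 comparisons p = 0.114), while the HERPUD1 level of the same groups overlapped. Neither p covers the choice of this transcript among others, so they are no test of the separation. The portion of all transcript shares that separate in this way is not given here. In regular medium the share was 31.0%, 53.8% and 16.6% in FASN knockdown, against 27.4%, 29.6% and 0% in control, with no separation (exact p = 0.400). Of all HERPUD1 counts, 58.8% fell on protein-coding transcripts, 29.8% on transcripts with no defined coding sequence and 11.3% on retained introns. The other 9 genes had at least 89.5% of their counts on protein-coding transcripts.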
